A study of Mus musculus with 2 samples.

Results

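The expression of 10 genes of bone morphogenetic protein (BMP) signalling was described in mouse small intestinal organoids: the receptors Bmpr1a and Bmpr2, the signal transducers Smad1 and Smad5, the inhibitors Smad6, Smad7 and Bambi, and the target genes Id1, Id2 and Id3. They are 10 of the 31053 genes in the deposited count matrix, taken as a list of names. The genes were selected on measured values, their levels by cell class and by barcode suffix in these data. Those levels are therefore given as a description, and no test was made on them.

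Organoids are miniature epithelia that grow from intestinal stem cells in a dish. There was 1 control library and 1 library from organoids treated with melatonin, the hormone of the pineal gland, each built from cells of 3 independent organoid lines that were pooled on culture day 3. Genotype, strain and the age of the donor animals are not named in the labels. The files of the control and the melatonin library were identical (3 of 3), and hold a single matrix of 21806 barcodes with the suffix 1 or 2. Nothing in the labels ties a suffix to a treatment. Control and melatonin were therefore not compared, and values are given for the barcodes with suffix 1 (set 1) and suffix 2 (set 2). Ratios of set 2 over set 1 have no direction with respect to melatonin. With no replicates, every interval below is a 95% interval for counting error only.

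Kept barcodes had at least 500 genes, at least 1000 unique molecular identifiers (UMIs) and at most 20% mitochondrial UMIs, which left 2300 cells in set 1 and 1766 in set 2. Their median depth was 29872 and 28759 UMIs. Of all barcode sequences, 29 occurred with both suffixes, and 0 did so among the kept cells. Epithelial markers such as Epcam summed to 4360 and 5474 UMIs per 1000000 UMIs of the set (CPM). Immune markers summed to 1.35 and 0.89999 CPM, with Ptprc and Cd3e at 3 UMIs or fewer in each set. Mesenchymal markers came to 77.1 and 65.7 CPM, nearly all of it Vim, with Col1a2, Col3a1, Acta2 and Dcn at 3 UMIs or fewer in each set. Endothelial markers came to 17.6 and 16.9 CPM, led by Egfl7, with Cdh5, Kdr, Tie1 and Emcn at 3 UMIs or fewer.

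BMP ligands bind a complex of type I receptors such as Bmpr1a and type II receptors such as Bmpr2, which phosphorylates Smad1 and Smad5. These Smads enter the nucleus with Smad4 and switch on target genes, among them the Id genes, whose proteins bind E proteins and keep them off DNA. Smad6 and Smad7 block the pathway inside the cell, and Bambi is a receptor-like membrane protein without a kinase domain that inhibits signalling at the surface. In the intestine, BMP signalling is low at the base of the crypt and high along the villus, where it restrains stem cells and promotes differentiation.

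Promoter sequences of 7 of the 10 genes were searched in the RefSeq table for GRCm38.p6, which gives 250 bases before and 50 bases after each annotated start. Id1, Bambi and Smad7 were not searched, so no statement is made on their promoters. The 250 bases before the start are shown for Id2 and Id3, which differed in level between the sets as Id1 did. Motifs known from BMP-responsive promoters are in capitals. These are the palindrome GGCGCC and the short Smad element GTCT, searched on both strands as GTCT or AGAC. For Smad6, 30 bases around the start are shown with GTCTAGAC, a palindrome made of 2 such elements, in capitals.
Id2, chr12:25096093-25096342, minus strand: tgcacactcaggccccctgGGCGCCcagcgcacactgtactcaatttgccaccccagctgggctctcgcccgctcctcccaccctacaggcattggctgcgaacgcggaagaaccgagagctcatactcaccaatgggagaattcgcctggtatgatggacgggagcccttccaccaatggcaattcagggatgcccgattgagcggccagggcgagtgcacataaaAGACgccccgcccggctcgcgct
Id3, chr4:136143572-136143821, plus strand: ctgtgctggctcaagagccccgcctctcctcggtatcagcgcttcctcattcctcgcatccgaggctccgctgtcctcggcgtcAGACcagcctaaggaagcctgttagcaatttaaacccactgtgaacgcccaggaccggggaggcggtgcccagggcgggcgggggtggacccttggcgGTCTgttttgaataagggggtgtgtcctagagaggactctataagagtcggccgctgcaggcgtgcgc
Smad6, chr9:64022045-64022074, minus strand: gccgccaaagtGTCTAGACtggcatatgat

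Positions are counted from the annotated start, with -1 for the base just before it. The Id2 window held GGCGCC at -231 and AGAC at -23. That of Id3 held AGAC at -166 and GTCT at -68, and no GGCGCC. In Smad6 the GTCTAGAC began at -4 and so spans the start. Of 32851 promoters in the table, 9.59% held GGCGCC in the same 250 bases, 82.9% held GTCT on either strand and 0.167% held GTCTAGAC. Over the full promoter length GTCTAGAC was in 0.213%. The short element overlaps the long one and is so common that its presence separates few promoters. GGCGCC also stood at -198 in the promoter of Bmpr1a, at -105 in that of Bmpr2 and at -19 in 1 of the Smad5 promoters. A match of letters is a description and does not show that a Smad is bound there.

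Cells were put into classes by the summed UMIs of marker genes, with none of the 10 genes among the markers. The largest class was cells with markers of G2 and mitosis such as Mki67 and Top2a, 1265 cells in set 1 (55.0% of the set, interval 52.9% to 57.0%) and 622 in set 2 (35.2%, 33.0%–37.5%). Cells with S phase markers numbered 149 and 270, and cells with stem markers such as Lgr5 but neither cycle list 89 and 130. There were 253 and 261 enteroendocrine cells (hormone-producing cells, marked by Chga and Chgb), 128 and 183 enterocytes (absorptive cells, marked by Fabp1 and Apoa1), 42 and 36 goblet or Paneth cells (secretory cells) and 19 and 30 cells with markers of revival cells such as Anxa1. A further 63 and 56 cells passed 2 or more of the gates for differentiated classes and were kept apart. Cells past no gate were called ungated and numbered 81 and 116, apart from 211 and 62 with under 5000 UMIs. The gates are cuts along a continuous score: 861 cells lay within 1.25-fold of the stem cut, 354 of the G2 and mitosis cut, 479 of the S phase cut, 70 of the enterocyte cut and 30 of the enteroendocrine cut. For goblet or Paneth cells 92 lay near the cut and 161 past it, and for revival cells 107 and 93. The shallow cells have few UMIs of any member and are left out of statements on the highest and lowest class.

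The 3 Id genes were lower in set 2 than in set 1, and of the other members all but Smad6, which had 20 and 4 UMIs, differed by less than 1.5-fold. Id1 stood at 127 CPM in set 1 (124–130) and 63.8 CPM in set 2 (61.7–66.1), a level 1.99-fold lower (1.91–2.07). Id2 stood at 81.1 CPM (78.9–83.4) and 29.1 CPM (27.6–30.6), 2.79-fold lower (2.63–2.96). Id3 stood at 43.2 CPM (41.6–44.9) and 22.01 CPM (20.7–23.3), 1.96-fold lower (1.83–2.11). The intervals of the sets lay far apart for each of the 3 genes.

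On the log2 scale, with 1 CPM added to each level, these ratios were -0.98 for Id1, -1.45 for Id2 and -0.94 for Id3. Of the 7585 genes that reached 10 CPM, 9 had a lower ratio than Id2, 21 than Id1 and 25 than Id3. Among the 7 members at that level (Bambi, Smad6 and Smad7 did not reach it), 3 were lower in set 2 by over 1.5-fold and 0 were higher, where 1.05% of all genes were lower and 2.73% higher. The median log2 ratio of these 7 members was -0.15, and that of all 7585 genes 0.05. Because the Id values were known when the list was made, these counts describe the list and support nothing about it. In each comparison below, a gene entered when it reached 10 CPM in at least 1 of the groups, so a gene under 10 CPM in the other could count in 1 direction only. Between a class and the other cells this holds for every Bambi and Smad7 count and for every count of Smad5 as lower, and their directions carry no support.

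**Figure D1:**
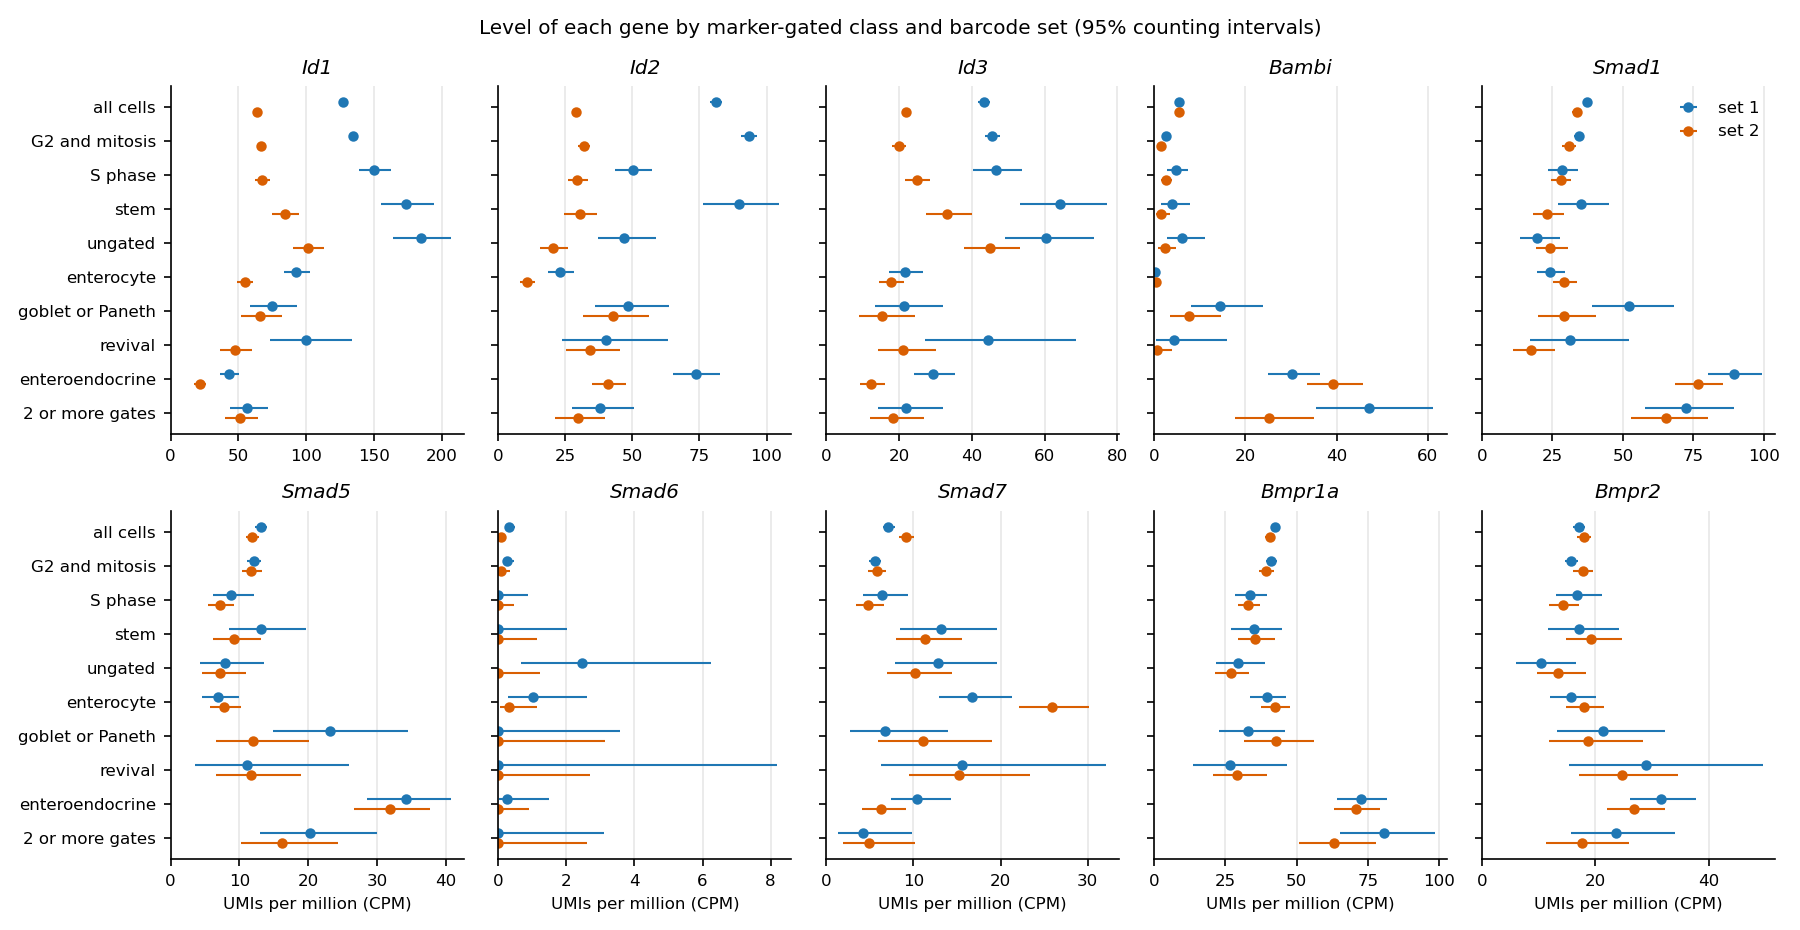
Level of each member in CPM (horizontal axis, linear, starting at 0) in all kept cells and in each marker-gated class, in set 1 (blue) and set 2 (orange); bars are 95% intervals for counting error. The Id genes lie to the right in set 1, for example 127 against 63.8 CPM for Id1 in all cells, while Bambi, Smad1, Smad5, Bmpr1a and Bmpr2 reach high levels in enteroendocrine cells and Smad7 in enterocytes.

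The lower Id levels of set 2 were present within classes as well. In G2 and mitosis cells Id1 was 135 CPM in set 1 (131–138) and 66.9 CPM in set 2 (63.6–70.5). Id2 was 93.5 CPM (90.6–96.4) and 31.9 CPM (29.6–34.3) in the same cells. Id3 was 45.6 CPM (43.7–47.7) and 19.9 CPM (18.1–21.8). The log2 ratios were -0.996, -1.52 and -1.16, and 3 of 7 members compared here were lower by over 1.5-fold, against 1.23% of genes, and 0 were higher, against 1.63%.

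Among S phase cells the log2 ratios were -1.14 for Id1, -0.74 for Id2 and -0.88 for Id3, so that 3 of 6 members compared were lower against 2.26% of genes and 0 higher against 3.89%. Cells of the stem class had -1.04, -1.54 and -0.93, with 3 of 8 members lower against 5.43% of genes and 0 higher against 4.73%. In ungated cells the ratios were -0.86, -1.17 and -0.42, and 2 of 7 members were lower against 5% of genes and 0 higher against 7.26%. Id3 was the gene that missed 1.5-fold there, at 60.5 CPM (49.1–73.6) and 45.0 CPM (37.8–53.2).

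The differentiated classes had lower Id levels in set 2 with more variation between the genes. Enteroendocrine cells had log2 ratios of -0.97 for Id1, -0.83 for Id2 and -1.20 for Id3. With Smad7 (-0.65), 4 of 9 members were past 1.5-fold lower, where 4.8% of genes were, and 0 were higher, against 2.09%. Smad7 entered only through set 1, where it was above 10 CPM, so it could count as lower only, and the interval of its ratio included no difference (-1.51 to 0.02), on 39 and 26 UMIs. Enterocytes had -0.75 for Id1 and -1.05 for Id2 but -0.26 for Id3, whose interval (-0.70 to 0.15) included 0. In enterocytes 2 of 7 members were lower against 4.53% of genes, and 1, Smad7, was higher against 3.02%. In the cells past 2 or more gates the Id ratios lay between -0.35 and -0.13 with intervals that included 0, and 1 of 8 members, Bambi, was lower (-0.87) against 15.6% of genes, and 0 were higher against 10.4%. Whether the Id ratios differ between classes was not tested.

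**Figure D2:**
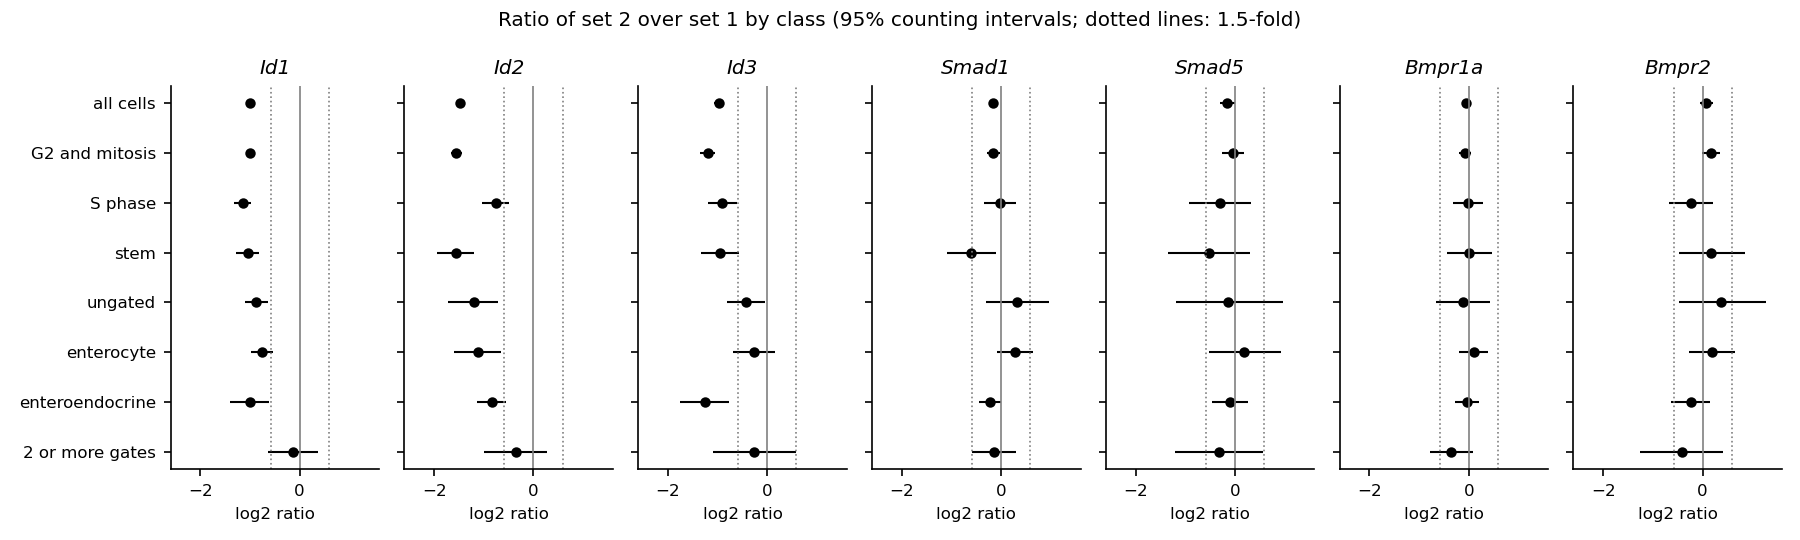
Log2 ratio of the level in set 2 over set 1 (horizontal axis) for the 7 members at 10 CPM or more over all cells, in all cells and within each class with at least 50 cells in each set (rows); points are ratios of CPM, bars 95% counting intervals and dotted lines 1.5-fold. The ratios of Id1 and Id2 lie left of 0 in every row, with intervals that reach 0 only in the cells past 2 or more gates, while those of Smad1, Smad5, Bmpr1a and Bmpr2 scatter about 0.

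The Id levels differed between the sets both in the median cell and in the highest cells. The median G2 and mitosis cell had 85.5 CPM of Id1 in set 1 and 29.1 CPM in set 2, and the 90th percentile was 320 and 182 CPM. For Id2 the medians were 62.2 and 17.6 CPM and the 90th percentiles 221 and 90.2 CPM. For Id3 the median was 21.6 CPM in set 1 and 0 in set 2, with 90th percentiles of 124 and 59.0 CPM. The 3 cells with the most UMIs gave 1.98% of all Id1 UMIs in set 1 and 2.30% in set 2, so the Id1 sums did not rest on a few cells.

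**Figure D3:**
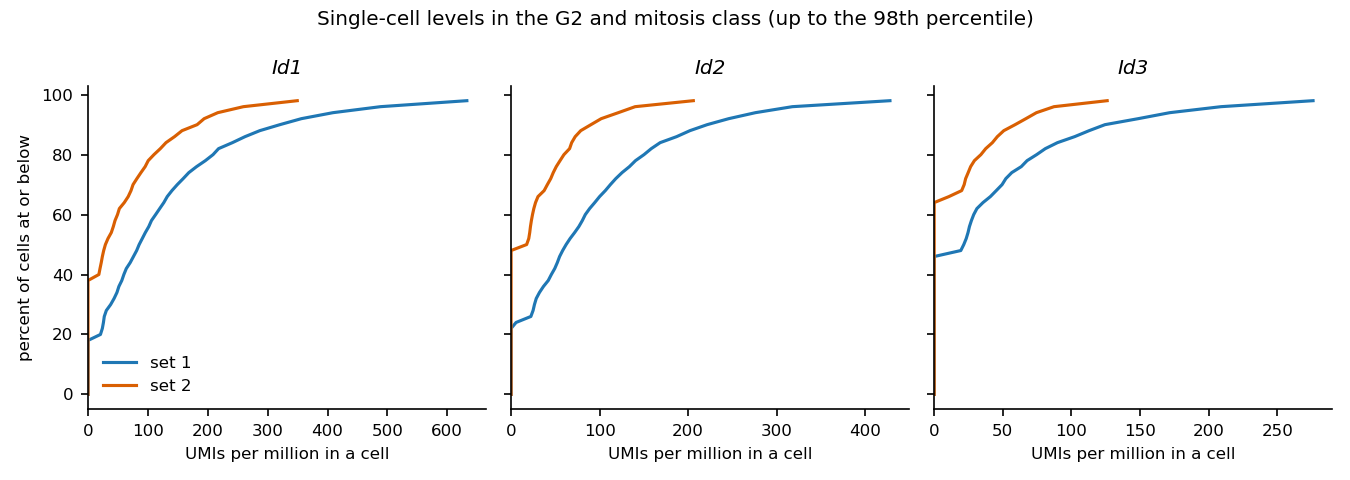
Percent of G2 and mitosis cells (vertical axis) at or below a given level of Id1, Id2 and Id3 in CPM (horizontal axis, linear), up to the 98th percentile, in set 1 (blue) and set 2 (orange). The set 2 curve lies above and to the left of the set 1 curve for each gene, with an Id1 median of 29.1 against 85.5 CPM.

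At a common depth of 2000 UMIs per cell, which left out 265 and 77 shallower cells, the expected share of cells with an Id1 UMI was 18.5% in set 1 (16.9%–20.3%) and 10.1% in set 2 (8.67%–11.6%). That of Id2 was 13.5% (12.1%–15.1%) and 5.88% (4.79%–7.09%). That of Id3 was 7.47% (6.36%–8.70%) and 3.90% (3.03%–4.94%). Without thinning the shares were 64.8% and 53.9% for Id1, 59.6% and 42.1% for Id2, and 43.0% and 31.4% for Id3. Thinned shares, like CPM, were lower in set 2 for each of the 3 genes.

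Id1 and Id3 varied together from cell to cell. Over cells with at least 10000 UMIs their correlation was 0.42 in set 1 (1809 cells) and 0.29 in set 2 (1544 cells), as a description of cells that share a library. Within G2 and mitosis cells it was 0.45 and 0.39. Id2 was less tied to them, at 0.22 with Id1 in set 1 and 0.09 in set 2. At 2000 UMIs the variance of Id1 counts was 1.39 times their mean in set 1 and 1.13 times in set 2, where independent sampling from equal cells would give 1.

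Across classes the Id genes followed different orders. Id1 was highest in ungated cells, at 184 CPM in set 1 (164–206) and 100.9 CPM in set 2 (89.9–113), and in stem cells at 174 CPM (155–194) and 84.0 CPM (74.4–94.6). These neighbours have overlapping intervals in each set. It was lowest in enteroendocrine cells, at 43.1 CPM (36.7–50.2) and 21.4 CPM (17.2–26.4), which is 3.08-fold and 3.15-fold below the other cells of the same set. Enterocytes lay between, at 92.7 CPM (83.5–103) and 54.6 CPM (49.0–60.7). The cells past 2 or more gates stood at 56.3 CPM (43.7–71.5) and 51.3 CPM (40.2–64.5), levels that rest largely on 3 cells of each set. Without those cells they stood at 17.9 and 16.2 CPM, under the level of all enteroendocrine cells, so the lowest place depends on few cells.

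Id3 had the same highest classes as Id1, with 64.3 CPM in stem cells of set 1 (53.2–77.1) and 45.0 CPM in ungated cells of set 2. Its lowest level in set 2 was in enteroendocrine cells, at 12.3 CPM (9.15–16.2). That interval overlaps those of goblet or Paneth cells (15.35 CPM, 9.10–24.3) and enterocytes (17.8 CPM, 14.6–21.4). It also overlaps those of cells past 2 or more gates (18.3 CPM, 11.9–26.8) and revival cells (21.1 CPM, 14.1–30.3). In set 1 the lowest levels were in goblet or Paneth cells (21.3 CPM, 13.3–32.2), enterocytes (21.5 CPM, 17.2–26.6) and cells past 2 or more gates (21.9 CPM, 14.3–32.0), whose intervals overlap. The high place of the stem class depends on where the gates lie. With all cuts doubled, the log2 ratio of stem over other cells went from 0.46 to -0.12 for Id1 and from 0.58 to -0.19 for Id3 in set 1. In set 2 it went from 0.42 to -0.28 for Id1 and from 0.63 to -0.49 for Id3.

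Id2 was lowest in enterocytes. There it stood at 23.1 CPM in set 1 (18.6–28.3) and 10.6 CPM in set 2 (8.24–13.5), 3.69-fold (3.00–4.59) and 2.97-fold (2.33–3.86) below the other cells. Enteroendocrine cells had a level of 73.5 CPM (65.1–82.8) and 41.0 CPM (35.04–47.6), and were the class with the second highest CPM of Id2 in set 2, after goblet or Paneth cells at 42.6 CPM (31.6–56.2). The enteroendocrine class was thus low in Id1 and not low in Id2. G2 and mitosis cells had the highest Id2 of set 1, 93.5 CPM, with stem cells beside them at 89.6 CPM (76.4–104).

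Within the crypt-like classes of set 1, Id2 was higher in cells with the stem marker Olfm4. Of the cycling, stem and ungated cells of set 1, 127 had at least 3 Olfm4 UMIs and an Id2 level of 123 CPM (113–133), and 1457 had fewer and 84.4 CPM (81.8–87.1). Id1 was 128 CPM (118–138) and 140 CPM (137–144) in these cells. Set 2 had 7 cells with 3 or more Olfm4 UMIs, with 51.6 CPM of Id2 (29.5–83.7), and 1131 with fewer, at 30.1 CPM (28.3–31.9). These intervals overlap, and 3 of the 7 cells gave 81.3% of their 16 Id2 UMIs. The sets thus differed in Olfm4 along with Id2, and the cells with fewer Olfm4 UMIs differed in Id2 as well. Olfm4 is also 1 of the stem markers.

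G2 and mitosis cells were also divided by the stem gate. The 906 of these cells in set 1 that also passed the stem gate had 99.5 CPM of Id2 (96.2–103) against 72.7 CPM (67.5–78.3) in the 359 that did not. Id3 ran the other way, at 40.01 CPM (37.9–42.2) and 65.0 CPM (59.998–70.2), and so did Id1, at 126 CPM (122–130) and 163 CPM (155–172). In set 2 the same cells had 33.9 CPM (31.2–36.8) and 24.9 CPM (20.7–29.7) of Id2, and 17.8 CPM (15.8–19.9) and 27.1 CPM (22.7–32.2) of Id3. In S phase cells of set 1 divided the same way, Id3 was 51.3 CPM (42.3–61.6) with stem markers high and 41.7 CPM (33.1–51.7) with them low, with overlapping intervals, and in set 2 it was 22.5 CPM (18.6–26.9) and 29.3 CPM (23.4–36.2), also overlapping. Id1 there was 146 CPM (131–163) and 154 CPM (138–173) in set 1, and 55.1 CPM (49.0–61.8) and 90.2 CPM (79.7–102) in set 2, where the intervals lie apart.

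The crypt-like classes were also compared with the other cells of their set. In G2 and mitosis cells of set 1, Id2 was higher (log2 0.84) where 6.23% of genes were, and of the other 8 members Bambi (-1.92) and Smad7 (-0.86) were past 1.5-fold lower, where 20.6% of genes were, but both entered only through the other cells. In set 2, of 8 members, 0 were higher against 6.88% of genes, and 0 were lower against 13.9%, apart from Smad7 (-0.92), which again entered only through the other cells. The Id2 ratio of set 2 was 0.24, and the difference between the sets in this ratio was not tested.

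In stem cells of set 1, 0 of 8 members were lower where 8.65% of genes were, and 0 were higher where 1.6% were, apart from Smad7 (0.84, on 24 UMIs), which entered only through the stem cells. In set 2, Id3 was the 1 of 8 higher (0.63) where 0.539% of genes were, and 0 were lower against 11%. In S phase cells 0 members were higher, against 2.9% and 3.54% of genes, and Id2 (-0.72) was lower in set 1 and Smad5 (-0.76) and Smad7 (-0.92) in set 2, against 10.8% and 12.2%. In ungated cells of set 1, Smad7 was higher (0.79) where 2.07% of genes were, and Id2, Smad1, Smad5 and Bmpr2 were lower where 19.5% were. In set 2, Id1 (0.71) and Id3 (1.10) were higher where 0.648% of genes were, and Smad5 and Bmpr1a were lower where 16.9% were.

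The cells past 2 or more gates had Bambi, Smad1, Smad5 and Bmpr1a higher in set 1, 4 of 8 members where 40.9% of genes were, and the 3 Id genes lower, where 17.9% were. In set 2, Bambi, Smad1 and Bmpr1a were higher, 3 of 8 members where 29.6% of genes were, and 0 were lower, where 15.9% were. That count of 0 rests on few cells, since 3 cells gave 71.6% of the Id1 UMIs of this class in set 1 and 72.6% in set 2. Without the 3 cells with most UMIs on either side, the log2 ratio of Id1 was -1.90 in set 2, against -0.32 with them, and -2.75 in set 1, against -1.18. Doublets were not called. Over both sets, 1 of the 119 cells past 2 or more gates was in the top 5% of a doublet score. For G2 and mitosis cells it was 145 of 1887. The part of doublets in these values was not tested.

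The receptor genes were at nearly equal levels in both sets. Bmpr1a, the type I receptor, stood at 42.5 CPM in set 1 (40.9–44.2) and 40.8 CPM in set 2 (39.0–42.5), a ratio of 0.959 (0.905–1.02). Bmpr2, the type II receptor, stood at 17.1 CPM (16.1–18.1) and 18.0 CPM (16.8–19.2), a ratio of 1.05 (0.963–1.15). The transducer Smad1 was 37.3 CPM (35.8–38.9) and 33.6 CPM (32.0–35.2), with a ratio of 0.899 (0.844–0.957). Smad5 was 13.1 CPM (12.2–14.1) and 11.8 CPM (10.9–12.8), with a ratio of 0.9002 (0.8088–1.001). The intervals of these 4 ratios lie within 1.5-fold, as far as counting error goes.

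Receptors and transducers were higher in enteroendocrine cells than in any other class past a single gate. Bmpr1a was as high, 80.7 CPM in set 1 (65.4–98.6) and 63.2 CPM in set 2 (50.85–77.7), in the cells past 2 or more gates, which had 21978 and 12186 CPM of the enteroendocrine marker Chgb. Bmpr1a was 72.5 CPM in set 1 (64.1–81.6) and 70.8 CPM in set 2 (63.0–79.4), 1.79-fold and 1.86-fold above the other cells. Bmpr2 was 31.6 CPM (26.1–37.8) and 26.7 CPM (22.004–32.2), 1.96-fold and 1.55-fold above them, with intervals that overlap those of the revival cells. Smad1 was 89.3 CPM (80.0–99.4) and 76.6 CPM (68.4–85.5), 2.63-fold and 2.58-fold above them. Smad5 was 34.2 CPM (28.6–40.7) and 31.8 CPM (26.6–37.7), 2.91-fold and 3.16-fold above them.

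These ratios have to be read against all genes. With Bambi, 5 of 9 members compared were higher in enteroendocrine cells of set 1, where 46.4% of genes were, and the same 5 of 8 in set 2, where 41.7% were. The median gene had a log2 ratio of 0.49 and 0.37 in this comparison, and enteroendocrine cells had a median of 14110 and 14424 UMIs, less than the 36579 and 38169 of G2 and mitosis cells. In set 1, 1919 of 8991 genes had a higher ratio than Smad1 and 3429 a higher one than Bmpr1a. Id1 was the 1 member lower by over 1.5-fold in set 1, where 18.3% of genes were, and Id1 and Id3 were the 2 lower in set 2, where 19.9% were.

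The receptors had similar levels in G2 and mitosis cells and in enterocytes. From G2 and mitosis cells to enterocytes, Bmpr1a ran from 41.2 to 39.5 CPM in set 1 and from 39.3 to 42.4 CPM in set 2. Bmpr2 ran from 15.8 to 15.7 CPM and from 17.7 to 17.9 CPM. Both genes were lowest in ungated cells, with Bmpr1a at 29.3 CPM (21.6–38.9) and 27.0 CPM (21.4–33.5), except that Bmpr1a was lower still, at 26.7 CPM (13.8–46.6), in the 19 revival cells of set 1.

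Bambi, the decoy receptor, had its highest levels in enteroendocrine cells and in cells past 2 or more gates. Over all cells it had 338 UMIs in set 1 (5.48 CPM, 4.92–6.10) and 278 in set 2 (5.44 CPM, 4.82–6.12). Enteroendocrine cells had 30.2 CPM (24.9–36.3) and 39.3 CPM (33.5–45.8), which is 7.77-fold (6.15–9.79) and 16.0-fold (12.6–20.5) above the other cells. Cells past 2 or more gates had 47.1 CPM (35.6–61.1) and 25.3 CPM (17.7–35.0), and goblet or Paneth cells 14.5 CPM (8.11–23.9) and 7.68 CPM (3.51–14.6). In enterocytes it had 1 UMI and 3 UMIs. Among enteroendocrine cells, 28.5% (23.0%–34.4%) in set 1 and 26.8% (21.5%–32.6%) in set 2 had a Bambi UMI. The shares of enterocytes were 0.781% (0.0198%–4.28%) and 1.64% (0.339%–4.72%), although these cells were deeper, at 32878 and 34075 UMIs. Of 8991 genes, 643 had a higher ratio in enteroendocrine cells of set 1, and 314 of 8923 in set 2.

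RNA that leaks from broken cells gives each class a low level of genes it does not use. The hormone-granule gene Chgb, at 40990 CPM in enteroendocrine cells of set 1, stood at 47.6 CPM in G2 and mitosis cells and 48.4 CPM in enterocytes. For each 1000 Chgb UMIs there were 0.737 Bambi UMIs in enteroendocrine cells and 53.4 in G2 and mitosis cells of set 1, and 1.08 and 33.4 in set 2. The part of such RNA in the Bambi level of other classes was not tested.

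Within enteroendocrine cells, Bambi was highest where Neurog3, the factor that starts enteroendocrine differentiation, was at 1 or more UMIs per 10000 and Tph1, the enzyme of serotonin synthesis, under 5. These cells numbered 37 in set 1 and had 97.1 CPM (70.8–130). Cells with both genes had 15.1 CPM (8.28–25.4), cells with Tph1 only 12.5 CPM (7.02–20.7), and cells with neither 33.8 CPM (24.0–46.2). In set 2 the order was the same at its top: 345 CPM (261–448) in 16 cells with Neurog3 only, 24.3 CPM (13.9–39.5) with both, 9.92 CPM (5.55–16.4) with Tph1 only and 41.8 CPM (33.0–52.4) with neither. The 3 cells with the most Bambi UMIs gave 28.9% of the Bambi UMIs of the Neurog3-only cells in set 1 and 62.5% in set 2, so the level in set 2 rests largely on 3 cells. This split was chosen after values had been seen.

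**Figure D4:**
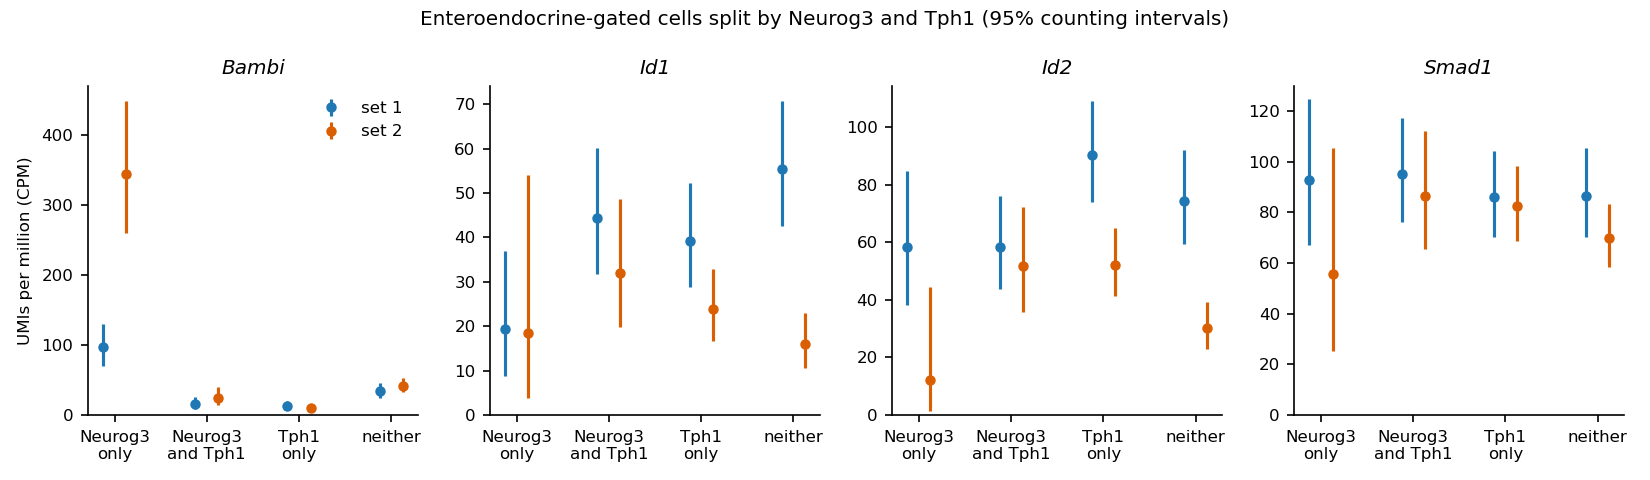
Levels of Bambi, Id1, Id2 and Smad1 in CPM (vertical axes, linear, starting at 0) in enteroendocrine cells split by their level of Neurog3 and Tph1, in set 1 (blue) and set 2 (orange); bars are 95% counting intervals. Bambi is highest in the cells with Neurog3 only, 97.1 and 345 CPM, while Smad1 lies between 86.1 and 95.2 CPM in the 4 groups of set 1 and between 55.5 and 86.6 CPM in those of set 2.

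Id1 stood at 19.4 CPM in set 1 (8.88–36.9) and 18.5 CPM in set 2 (3.81–54.1) in the Neurog3-only cells, on 9 and 3 UMIs, and the 3 UMIs of set 2 were in 1 cell. Id2 in set 1 was 58.2 CPM (38.4–84.7) in these cells and 90.3 CPM (74.1–109) in the cells with Tph1 only. These intervals overlap. Smad1 ranged from 86.1 to 95.2 CPM over the groups of set 1 and from 55.5 to 86.6 CPM over those of set 2, where its lowest value, in the Neurog3-only cells, rests on 9 UMIs (25.4–105).

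Smad7, the inhibitory Smad that BMP and TGF-beta signals both induce, was highest in enterocytes. Over all cells it stood at 7.14 CPM in set 1 (6.49–7.84) and 9.20 CPM in set 2 (8.38–10.1). Enterocytes had 16.7 CPM (12.9–21.3) and 25.9 CPM (22.1–30.2), 2.58-fold (1.95–3.36) and 3.78-fold (3.105–4.58) above the other cells. It was 5.55 CPM (4.87–6.29) and 5.78 CPM (4.82–6.87) in G2 and mitosis cells. The revival cells were near the enterocytes, at 15.6 CPM (6.26–32.1) and 15.3 CPM (9.45–23.3), on 7 and 21 UMIs.

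Of 8 members compared in enterocytes of set 1, Smad7 was the 1 that was higher, where 16.2% of genes were, and Id2, Id3, Smad1 and Smad5 were lower, where 30.5% were. Of 8 in set 2, Smad7 was higher against 16.9% of genes, and Id2 and Smad5 were lower against 34.3%. In this comparison 514 of 7771 genes had a higher ratio than Smad7 in set 1, and 336 of 7970 in set 2. Enterocytes also had the highest mitochondrial share, a median of 13.3% and 14.0% against 9.16% and 9.06% in G2 and mitosis cells. With the mitochondrial limit at 10%, 27 and 28 enterocytes were left and the log2 ratio of Smad7 was 0.40 and 1.15, against 1.24 and 1.78. The set 1 value was then under 1.5-fold.

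Along the enterocyte markers, Smad7 was high in the last bins and near-constant before them. Enterocytes, cycling, stem and ungated cells were binned by enterocyte marker UMIs per 10000. In set 1, Smad7 stayed between 4.38 and 7.02 CPM in all bins under 300 and was 25.1 CPM (19.1–32.4) in the 71 cells at 300 or more. In set 2 it stayed between 5.03 and 7.33 CPM under 100, and was 22.02 CPM (15.5–30.3) from 100 to 300 and 27.3 CPM (22.7–32.5) at 300 or more. At 300 or more the intervals of the sets overlap, and they differed from 100 to 300, where 57 cells of set 1 had 4.38 CPM (1.76–9.03) on 7 UMIs.

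Id2 ran the opposite way along the same bins. It was 103 CPM (98.3–107) at 10 to 20 marker UMIs in set 1 and 16.6 CPM (11.8–22.7) at 300 or more. In set 2 it was 33.2 CPM (30.2–36.4) at 0 to 10 and 9.96 CPM (7.29–13.3) at 300 or more. Id1 and Id3 of set 1 were highest in the bin from 40 to 100, at 166 CPM (155–177) and 57.7 CPM (51.4–64.6), below the enterocyte gate.

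The sets were not alike in every bin. In cells with 0 to 10 enterocyte marker UMIs, Id1 was 62.4 CPM in set 1 (52.3–73.9) and 61.0 CPM in set 2 (57.0–65.3), and did not differ beyond counting error. That bin held 89 cells of set 1 and 443 of set 2. Id2 still differed there, at 86.6 CPM (74.6–99.995) and 33.2 CPM. At 300 or more, Id3 was 14.5 CPM (10.0–20.2) and 17.8 CPM (14.1–22.04), with overlapping intervals, while Id1 was 88.1 CPM (76.5–100.97) and 56.3 CPM (49.7–63.6).

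**Figure D5:**
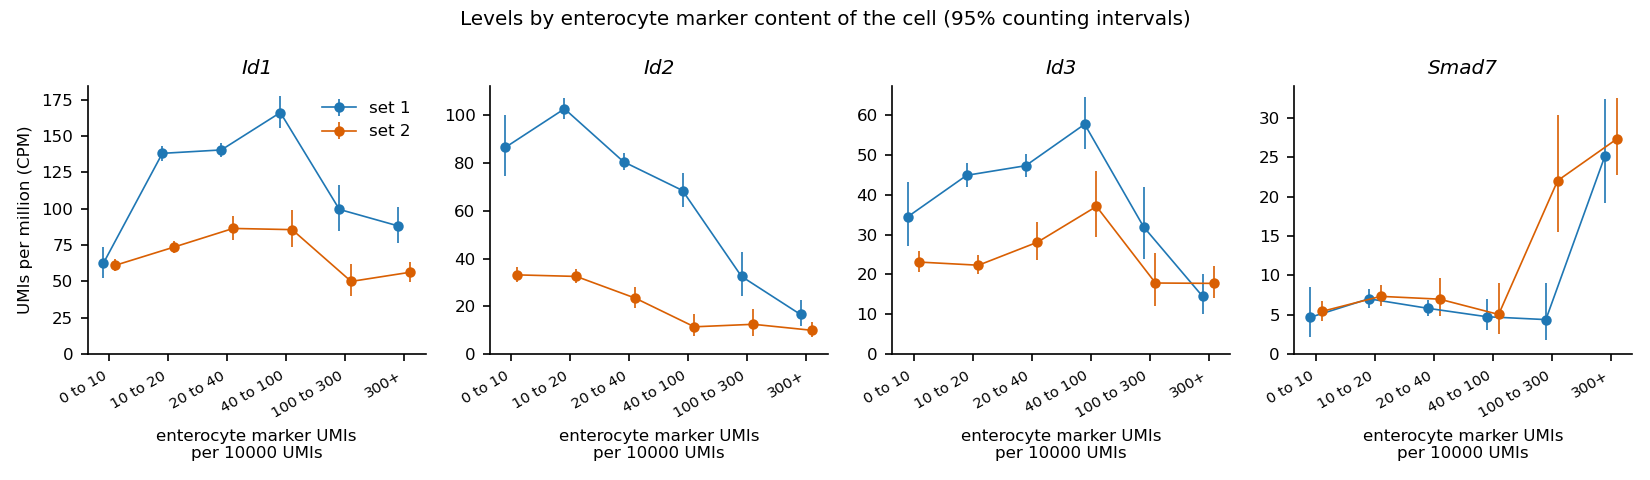
Levels of Id1, Id2, Id3 and Smad7 in CPM (vertical axes, linear, starting at 0) by the number of enterocyte marker UMIs per 10000 UMIs of the cell (horizontal axis, bins of unequal width), in set 1 (blue) and set 2 (orange); bars are 95% counting intervals and lines only join the bins. Smad7 is 25.1 and 27.3 CPM in the last bin and Id2 there is 16.6 and 9.96 CPM, while the Id1 intervals of the sets overlap in the first bin.

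Smad6, the inhibitory Smad with the closest tie to BMP signals, was barely detected. It had 20 UMIs in set 1 (0.325 CPM, 0.198–0.501) and 4 in set 2 (0.0783 CPM, 0.0213–0.200). The ratio of set 2 over set 1 was 0.241 with an interval from 0.0599 to 0.720. A UMI was present in 0.870% of cells of set 1 (0.532%–1.34%) and 0.226% of set 2 (0.0617%–0.579%). In set 1, 4 of the 20 UMIs were in enterocytes, 11 in G2 and mitosis cells and 4 in ungated cells, so its distribution over classes could not be described at this depth. Most classes had 0 UMIs, which in the stem cells of set 1 allows up to 1.65 CPM by the limit of 3 counts.

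The rest of the pathway was described with a list of 58 genes, chosen like the members with earlier results known. Of these, 21 reached 10 CPM in a set, and 0 of the 21 differed between the sets by over 1.5-fold in either direction, where 2.73% of all genes were higher and 1.05% lower. Their median log2 ratio was 0.08, beside 0.05 for all genes. Gdf15, a stress-induced ligand of the wider family, had the highest ratio, 57.2 CPM in set 1 and 80.7 CPM in set 2 (log2 0.49), and Rgmb, a BMP co-receptor that also served as a stem marker, the lowest, 47.3 and 36.2 CPM (log2 -0.38).

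Of the ligands, Bmp3 stood at 15.1 and 14.3 CPM and Bmp7 at 11.9 and 12.8 CPM. Bmp2 and Bmp4, ligands of Bmpr1a, were at 9.72 and 5.89 CPM and at 0.162 and 0.215 CPM. Bmp2 was thus just under the level for the count, with a log2 ratio of -0.64. Within G2 and mitosis cells it was 10.1 and 5.46 CPM (log2 -0.79). The receptors Acvr1b and Acvr2a were at 9.51 and 10.4 CPM and at 10.95 and 11.3 CPM, and the co-receptor Neo1 at 26.6 and 33.3 CPM. Smad4, the partner of Smad1 and Smad5, was at 50.8 and 44.3 CPM and Smad2 of the TGF-beta branch at 19.1 and 20.2 CPM.

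Of the secreted inhibitors, Dand5 stood at 3.23 and 2.95 CPM. Nog, Chrdl1 and Bmper had 0 UMIs in both sets, which allows up to 0.0487 and 0.0587 CPM, and so did the ligand Bmp5. Twsg1, which binds BMPs outside the cell, was the 1 of 12 such genes at 10 CPM, with 15.3 and 16.3 CPM. The inhibitors inside the cell were present, with Smurf2, a ubiquitin ligase for Smads and receptors, at 14.6 and 16.0 CPM, the co-repressor Ski at 20.5 and 21.4 CPM and Tob1, which binds Smads, at 93.1 and 104 CPM. Of the other targets, Gata4 was at 40.4 and 35.4 CPM and Hes1 at 315 and 336 CPM. The E proteins, the partners that Id proteins hold back, were at 44.2 and 39.3 CPM for Tcf3, 29.4 and 27.6 CPM for Tcf4 and 34.6 and 37.4 CPM for Tcf12. In the TGF-beta branch, Tgfbr1 was at 17.7 and 16.2 CPM, Tgfbr2 at 30.7 and 35.4 CPM and the repressor Tgif1 at 42.8 and 53.1 CPM.

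In enteroendocrine cells 18 of 27 listed genes compared in set 1 and 15 of 25 in set 2 were higher by over 1.5-fold, and 5 and 4 were lower. Of all genes 46.4% and 41.7% were higher and 18.3% and 19.9% lower. Some listed genes were at 10 CPM on 1 side only and could count in 1 direction only, among them Bmp1, Acvr1, Smurf1 and Skil as higher and Bmp3 as lower in both sets. Bmp1, a protease that processes matrix and BMP antagonists, was 24.9 and 33.0 CPM there, 10.1-fold (7.67–13.2) and 13.3-fold (10.3–17.1) above the other cells. Gdf15 was 232 and 246 CPM, Twsg1 55.1 and 48.4 CPM and Tcf4 90.7 and 69.9 CPM. Hes1, the Notch target that holds back secretory differentiation, was 50.3 and 43.4 CPM against 332 and 362 CPM in the other cells. Bmp3 was 1.34 and 3.86 CPM against 16.0 and 15.2 CPM.

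Enterocytes had 1 of 22 listed genes higher in set 1 and 2 of 22 in set 2, and 8 and 7 lower, where 16.2% and 16.9% of all genes were higher and 30.5% and 34.3% lower. Tgfbr2, the type II TGF-beta receptor, was higher in each set, at 68.2 CPM against 28.1 CPM and at 60.6 CPM against 31.8 CPM, and stood at 91.2 and 90.1 CPM in the revival cells. Tob1 was the second in set 2, at 178 CPM against 94.1 CPM. Bmp3 was low, at 3.29 and 2.38 CPM. Tcf4 was 15.2 and 13.7 CPM. Bmp2 was 15.6 CPM (6.26–32.1) and 27.6 CPM (19.6–37.9) in revival cells, against 8.11 and 8.89 CPM in enterocytes.

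For each Id gene the 5 genes whose levels over 16 class-by-set sums were most correlated were found among 7344 genes. These points share cells' depth and 2 barcode sets, and the correlations are given as a description. For Id1 they were Arhgdig (0.94), Colca2, Pafah1b3, Tgif2 and Rbms2 (0.89). For Id2 they were Nrtn (0.84), Rangrf, Ccdc43, Pcid2 and Rab26os (0.78). For Id3 they were Gm9493 (0.96), Pecr, C1qtnf12, Dnajc17 and Abhd14a (0.94). No gene is named for more than 1 of the Id genes.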

How the data were processed

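The authors deposited whole-number UMI counts per gene and barcode, unnormalized; per the submitters' processing notes bcl2fastq 2.20.0, Cell Ranger 3.1.0 and STAR 2.7.3a were used, with the build and annotation not given in the sources used here. The 10x 3' chemistry counts 1 end of a transcript, so levels of different genes are not compared. Of 31053 gene identifiers, 30934 were in GENCODE vM21, where Smad5, Bmpr2 and Bmpr1a overlap other annotated genes. Of the overlapping genes, the 1 in the gene list, Gm17110, which is antisense to Bmpr1a, had 2 UMIs.

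The members and lists were chosen with earlier results of these data known, and the cuts of the gates after marker distributions had been seen. A gate asked for at least 3 markers and, per 10000 UMIs, 20 marker UMIs for enteroendocrine cells, 100 for enterocytes, 60 for goblet or Paneth cells, 10 for revival cells, 12 for G2 and mitosis, 5 for S phase and 5 for stem cells, in this order. All 10 members are described, and of the pathway list each gene at 10 CPM in a set is named. Doublets were not called and all kept cells were used; leaving out the top 5% of a doublet score was an alternative. Sums of UMIs over cells are given as CPM with exact Poisson intervals. Shares have Clopper-Pearson intervals and ratios conditional binomial ones. UMIs are molecules, yet cells are not replicates, so there is no p-value. Ratios on the log2 scale add 1 CPM, which understates those of low genes, and the 1.5-fold rule uses them. Thinned shares are expected values from the hypergeometric distribution. On simulated counts of 7424 genes for set 2 over set 1, 200 of 200 genes changed by 2-fold passed the rule and 0 others did. These counts varied by counting error only, so the simulation checks the computation and not variation between cells or libraries. Python 3.11.15, numpy 2.4.6, scipy 1.17.1, pandas 2.3.3 and edgeR 4.0.16 (scaling factors only) were used.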

Additional observations from a re-analysis of the deposited data

How the results depend on the processing

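No paired analysis was possible because the labels give 1 library per group and no test was made. Id1, Id2 and Id3 remained lower in set 2 by over 1.5-fold under all 10 alternatives, with log2 ratios from -1.07 to -0.89, from -1.501 to -1.21 and from -1.05 to -0.73. Scaling by edgeR's TMM factors (0.982 and 1.02) was 1 of them. Without a mitochondrial limit the members' median log2 ratio was -0.013. The count of pathway genes past 1.5-fold was 1 instead of 0 with a mitochondrial limit of 10%, with mitochondrial UMIs left out of the denominator and over genes with at least 10 UMIs. Members higher in enterocytes of both sets went from 1 to 0 with the 10% limit. Members lower there went from 2 to 1 with the 10% limit, with no limit, with 10 CPM added, with mitochondrial UMIs left out and with the cuts halved. Members higher in enteroendocrine cells of both sets went from 5 to 4 with the 50% limit, with 10 CPM added, with the mean of each cell's CPM, without the top doublet scores, without the 3 top cells and with mitochondrial UMIs left out. Members lower there went from 1 to 2 without the 3 top cells, with mitochondrial UMIs left out and with cells past 2 or more gates counted in each class. The log2 ratio of Id3 in stem over other cells of set 2 was -0.49 with the cuts doubled, against 0.63. The cause of these changes was not tested.

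Shares of cells with a UMI rise with depth. At 5000 UMIs they were 35.9% and 21.8% for Id1, 28.3% and 13.2% for Id2 and 16.6% and 9.12% for Id3. With no thinning they were 64.8% and 53.9%, 59.6% and 42.1%, and 43.0% and 31.4%. Of the other results for single genes, 299 values moved by less than their counting interval, 46 by more, and 1 that was past 1.5-fold changed sign (Id3, above). Ratios under 1.5-fold also changed sign, among them Id1 in stem cells, Id3 in enterocytes of set 2, and Bambi and Bmpr1a between the sets. Of the values that answer a comparison, 85 stayed within their counting interval, or within 1.5-fold for a count, and 25 did not. The 25 include the shares of cells at 5000 UMIs and with no thinning, which rise with depth by construction. Depth limits Smad6 in every class, Bambi outside enteroendocrine cells, and all members in the 19 and 30 revival cells.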

Other observations

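Barcodes over the mitochondrial limit were kept out of the results above, and hold the same 10 genes. Per 1000000 UMIs that were not mitochondrial, Id1 stood at 134 in set 1 (127–142) and 61.4 in set 2 (56.5–66.5) in the 2467 and 1886 barcodes with 20% to 50% mitochondrial UMIs. Id2 stood at 103 (97.1–110) and 48.2 (43.9–52.8) there, and Id3 at 42.1 (38.3–46.3) and 17.5 (14.9–20.4). Above 50%, in 3643 and 1785 barcodes, Id1 was 116 (108–125) and 83.2 (74.1–93.1), and Id3 was 36.6 (31.9–41.7) and 31.6 (26.1–37.9), with overlapping intervals for Id3.

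Smad7 had a higher level with each step in the mitochondrial share. In set 1 it was 7.91 (7.19–8.69) per 1000000 non-mitochondrial UMIs at 20% or less, 18.0 (15.5–20.7) from 20% to 50% and 25.6 (21.7–29.9) above 50%. In set 2 it was 10.2 (9.29–11.2), 20.8 (18.0–23.9) and 42.3 (35.9–49.5). Bmpr2 was 18.9 (17.8–20.1) and 19.9 (18.7–21.3) at 20% or less and 27.9 (24.7–31.3) and 31.1 (27.7–34.9) from 20% to 50%. Above 50% it was 23.8 (20.1–28.0) and 32.2 (26.6–38.5), so that it had no such order in set 1. What these barcodes hold was not examined.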
